A study of Homo sapiens with 7 samples.

Results

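The Wnt genes described here were 10 genes of 56236 with a transcript in the files. They comprise 3 secreted antagonists (DKK1, DKK3 and SFRP1), 5 ligands (WNT4, WNT5A, WNT7A, WNT7B and WNT10A), the receptor FZD7 and the feedback gene AXIN2. The set was chosen by gene name with results of these libraries known, and DKK3 was selected on its fall upon TP63 silencing, so its values in that comparison are given as a description without a test. RNA-seq libraries came from TE5 and KYSE140, established cell lines of human esophageal squamous cell carcinoma. TE5 cells carried a non-targeting scramble shRNA or an shRNA against TP63, SOX2 or CCAT1, and KYSE140 cells carried the scramble shRNA or an shRNA against TP63 or SOX2. TP63 and SOX2 are transcription factors of squamous epithelium, CCAT1 is a long non-coding RNA, and the comparisons addressed which transcripts depended on each of them. No allele or agent beyond the lentiviral shRNA was named. Each condition was 1 library per line, and only 1 shRNA per target was sequenced in a line, so neither the spread between cultures nor an effect of the shRNA apart from its target could be measured. In bulk RNA, fewer cells of a type and less RNA per cell cannot be told apart.

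Wnt proteins are secreted lipid-modified ligands that bind Frizzled receptors together with the co-receptors LRP5 and LRP6. In the canonical branch this stabilizes beta-catenin, which enters the nucleus and activates TCF/LEF factors, while ligands such as WNT5A mainly act through branches that do not need beta-catenin. DKK1 blocks the co-receptors, SFRP1 binds ligands or Frizzled receptors, and AXIN2 is a target gene of beta-catenin that feeds back on it. DKK3 belongs to the Dickkopf family by sequence, although its action on Wnt signalling is less direct than that of DKK1.

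Estimated counts per library summed to between 68532611 and 98036494. The targeted transcripts were lower in their own libraries. TP63 was at 25.2% of scramble in TE5 and at 26.1% in KYSE140. SOX2 was at 39.4% in TE5 but at 76.4% in KYSE140, and CCAT1 was at 31% in TE5. The KYSE140 library labelled shSOX2 therefore reports a small reduction of its target. CCAT1 was also lower in the other knockdowns. It was at 37.6% in TE5 shTP63, 50.5% in TE5 shSOX2, 41.1% in KYSE140 shTP63 and 42.6% in KYSE140 shSOX2. SOX2 was at 66.6% in TE5 shTP63 and at 104% in KYSE140 shTP63. The comparisons are therefore not fully separate by target. Squamous basal markers showed 9 of 10 genes at 1 TPM (a level corrected for transcript length and library size) or more in the TE5 libraries, where KRT14 was between 0.202 and 0.546 TPM, and 10 of 10 in the KYSE140 libraries. The summed squamous level was 3520 TPM in TE5 scramble and 1680 in TE5 shTP63, and 16900 and 10900 in the matching KYSE140 libraries. TP63 and SOX2 are themselves on that list, and the part of the other markers in the results below was not tested. Summed fibroblast markers were between 13.7 and 71.4 TPM, with at most 2 of 8 genes at 1 TPM or more and THY1, LUM or COL3A1 at 0 in 4 libraries. Most of the sum was COL1A1, at 12.6 to 44.4 TPM over all libraries, and in KYSE140 also THY1, at 14.7 to 26.3 TPM. Leukocyte markers summed to between 0.522 and 1.86 TPM, and the 3 endothelial genes found of the 4 listed to between 0.698 and 9.31. Per the run names in the labels, each scramble library had another lane number than the knockdowns of its line, and for TE5 also another code before it, so a change common to all knockdowns of a line and a lane difference cannot be told apart.

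The sequences just upstream of the annotated starts are shown for 3 of the 5 genes that passed the 2-fold threshold used below in a comparison (DKK3, DKK1 and WNT5A), so that the results can be set beside the starts they concern. Each line gives 250 bases of GRCh37 (hg19) on the strand of the gene, 5′ to 3′, ending 1 base before the first base of the named transcript. Capitals mark matches to a TCF/LEF motif (CTTTGAA or CTTTGAT), a SOX motif (CATTGTT or CTTTGTT) or the p53-family decamer, searched on both strands.
DKK3-201 (chr11:12030918-12031167, minus strand): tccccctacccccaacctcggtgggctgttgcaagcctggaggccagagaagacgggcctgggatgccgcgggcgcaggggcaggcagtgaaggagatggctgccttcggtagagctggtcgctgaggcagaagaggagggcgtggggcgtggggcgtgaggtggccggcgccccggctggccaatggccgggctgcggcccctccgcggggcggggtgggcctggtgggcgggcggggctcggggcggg
DKK1-201 (chr10:54073791-54074040, plus strand): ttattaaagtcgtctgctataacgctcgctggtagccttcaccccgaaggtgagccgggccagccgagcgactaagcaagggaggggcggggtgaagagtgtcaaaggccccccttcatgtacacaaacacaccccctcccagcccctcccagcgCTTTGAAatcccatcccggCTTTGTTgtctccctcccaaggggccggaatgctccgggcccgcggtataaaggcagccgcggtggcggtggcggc
WNT5A-202 (chr3:55523974-55524223, minus strand): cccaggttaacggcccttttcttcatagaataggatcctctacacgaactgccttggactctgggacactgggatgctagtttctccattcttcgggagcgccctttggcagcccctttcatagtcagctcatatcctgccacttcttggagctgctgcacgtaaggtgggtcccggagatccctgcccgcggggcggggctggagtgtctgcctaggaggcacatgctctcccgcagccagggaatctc
Only the DKK1 window of these 3 held a match, CTTTGAA from 95 to 89 bases upstream and CTTTGTT from 76 to 70 bases upstream. Among 19553 protein-coding genes, a window of the same length upstream of the canonical start held CTTTGAA in 2.96%, CTTTGAT in 1.73%, CATTGTT in 1.73%, CTTTGTT in 3.29% and the p53-family decamer in 4.72%, and any of them in 13.3%. No match says only that these letters are not in this window, and the part of a match in any change below was not tested. The windows of WNT7B and AXIN2, which also passed the threshold, are not shown. The GC content was 75.6% in the DKK3 window, 62.8% in that of DKK1 and 58.4% in that of WNT5A. Exons of the antisense lncRNA PRKG1-AS1 overlap the DKK1 window, and a non-coding WNT5A transcript overlaps that of WNT5A. The DKK3 window lies inside the gene, downstream of the first exon of DKK3-203 (12031185-12031316). DKK3-202 starts at 12030629, so the bases just upstream of its start are others than those shown.

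In the scramble libraries, DKK1 and WNT7B led in TE5 and DKK3 and WNT7B in KYSE140. TE5 scramble held DKK1 at 198 TPM, WNT7B at 50.7, DKK3 at 36.6, WNT10A at 21.9, WNT7A at 7.44, FZD7 at 5.27 and WNT5A at 5.23, with WNT4 (0.669), AXIN2 (0.505) and SFRP1 (0.476) all under 1 TPM. KYSE140 scramble held DKK3 at 68.8 TPM, WNT7B at 58.7, FZD7 at 11.5, WNT10A at 10.1, WNT5A at 9.40, DKK1 at 8.25, AXIN2 at 3.95, WNT7A at 2.49 and WNT4 at 1.91, and SFRP1 was not counted. With 1 library each, the order of neighbours such as FZD7 and WNT5A in TE5 has no spread to be read against. By normalized count, DKK1 was 23.1-fold higher in TE5 than in KYSE140, WNT7A 2.70-fold and WNT10A 2.01-fold. AXIN2 was 10.2-fold higher in KYSE140, WNT4 4.10-fold, WNT5A 2.52-fold, FZD7 2.41-fold and DKK3 2.09-fold. WNT7B differed least, at 1.28-fold higher in KYSE140. The scramble libraries of the 2 lines were also read on different lanes.

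**Figure D1:**
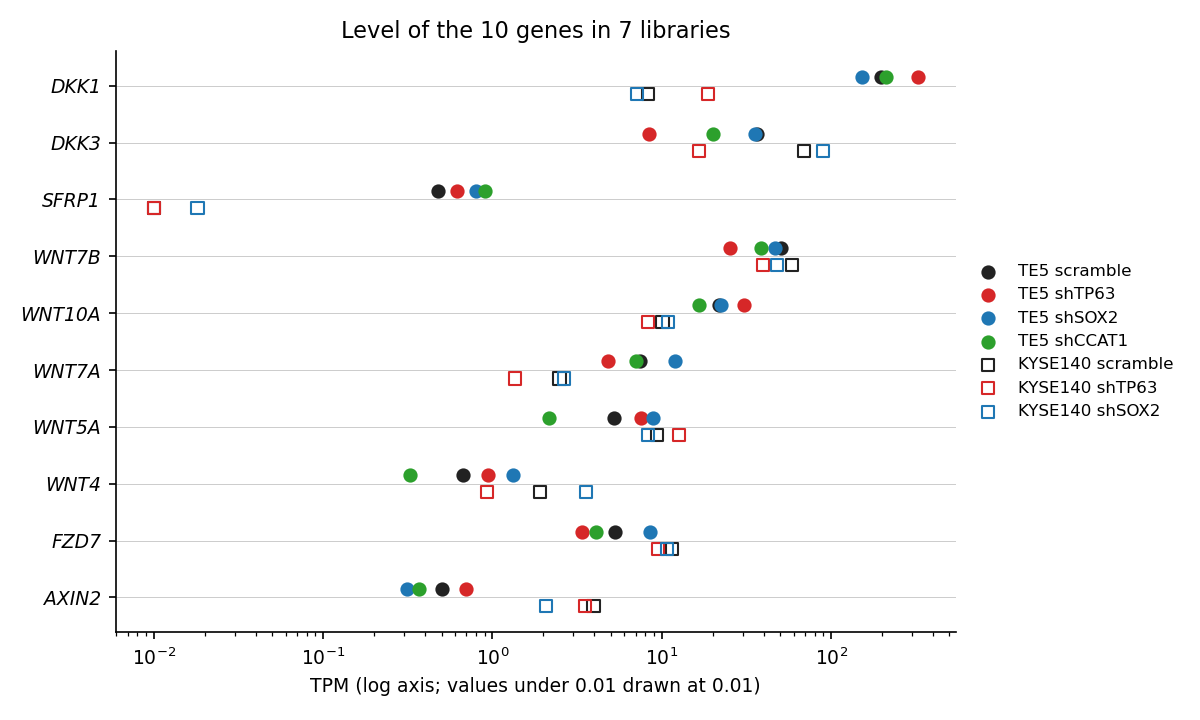
Level in TPM (log axis) of the 10 genes in each library, with filled circles for TE5, open squares for KYSE140 and a colour per shRNA. DKK1 separates the lines (152 to 325 TPM in TE5, 7.15 to 18.8 in KYSE140), DKK3 is lowest in the shTP63 library of each line (8.41 and 16.6), and SFRP1 in KYSE140 is at 0 in scramble and shTP63, which share a point drawn at 0.01.

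Across the 5 comparisons with the scramble of each line, few of the 10 genes changed past 2-fold, a log2 fold change under -1 or over 1 of normalized counts with 1 added. Upon TP63 silencing in TE5, DKK3 and WNT7B fell, and no member rose past the threshold. The share of all genes measured was 5.72% under -1 and 14.6% over 1. Upon SOX2 silencing in TE5, 0 of 10 members passed in either direction, against 4.98% and 6.29% of all genes. Upon CCAT1 silencing in TE5, WNT5A and AXIN2 fell, against a background of 5.96% lower and 12.1% higher. In KYSE140, 9 members were measured. There DKK3 fell and DKK1 rose upon TP63 silencing, against 4.29% lower and 8.89% higher in the background. Upon SOX2 silencing in KYSE140, 0 of 9 passed, against 6.39% and 6.91%. The DKK3 count was fixed by the choice of the gene, and nothing is read from it. Among genes with at least 100 counts in either library the shares were lower. In TE5 they were 4.46% under -1 and 6.0% over 1 (TP63), 1.76% and 1.41% (SOX2), and 2.08% and 2.29% (CCAT1). In KYSE140 they were 1.72% and 1.85% (TP63) and 2.37% and 2.38% (SOX2). With 10 members, a count of 0 to 2 beside either set of shares is no result about the members as a group. The median log2 fold change of the members was 0.25, 0.37 and -0.50 upon TP63, SOX2 and CCAT1 silencing in TE5, and -0.43 and 0.06 upon TP63 and SOX2 silencing in KYSE140, beside medians over all genes measured of 0.05, -0.01, 0.04, 0.05 and 0.04.

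**Figure D2:**
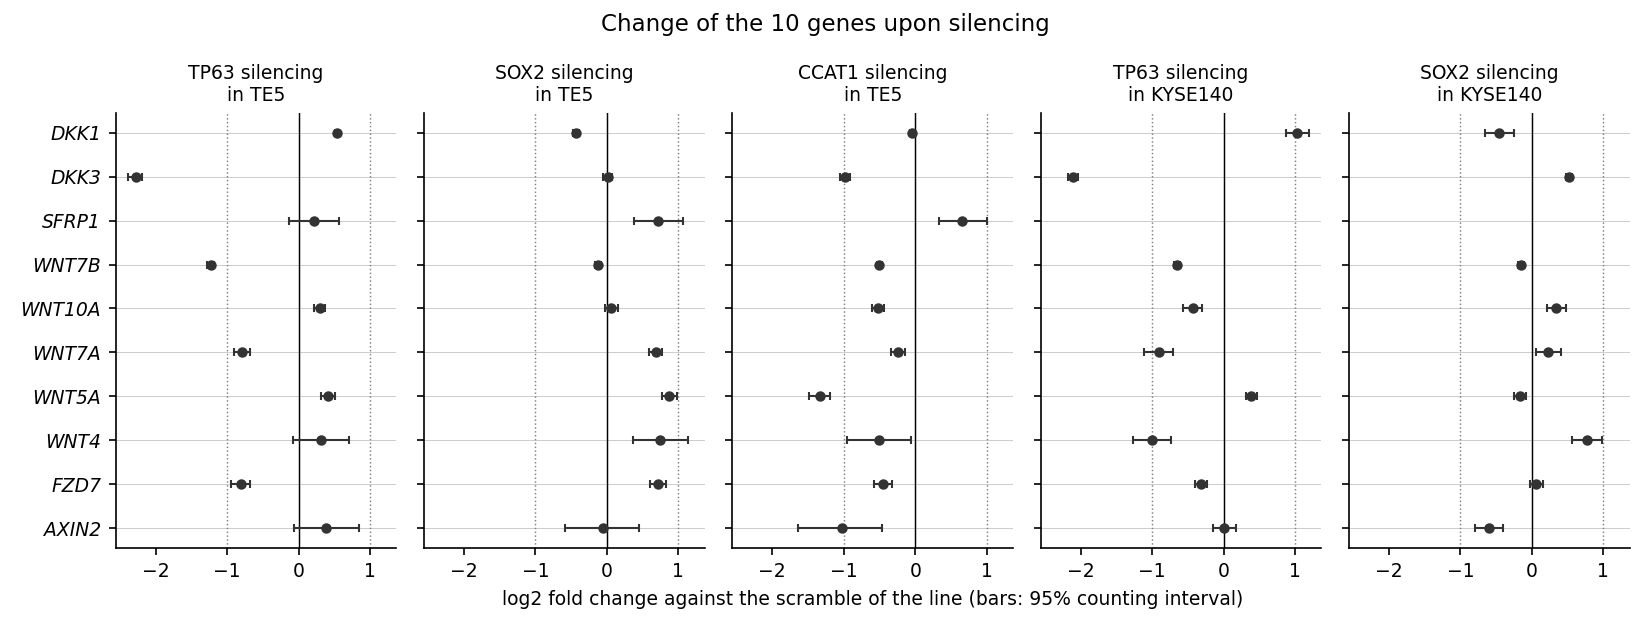
Log2 fold change against the scramble library of the same line (x axis) for the 10 genes (y axis) in the 5 comparisons, with bars for the 95% counting interval and dotted lines at -1 and 1. DKK3 lies at -2.28 and -2.10 upon TP63 silencing and at 0.01 and 0.52 upon SOX2 silencing, WNT5A lies at -1.33 upon CCAT1 silencing, and SFRP1 in KYSE140 is not drawn because it was under 10 counts.

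A fit over both lines, which treats the lines as replicates, made no call on any member. It was edgeR's quasi-likelihood test of 6 libraries with cell line as a block, over 30171 features at a Benjamini-Hochberg adjusted p under 0.1. For TP63 silencing 0 features were lower (0.0%) and 0 higher (0.0%), with 1996 lower and 1340 higher at an unadjusted p under 0.05. For SOX2 silencing 1 feature was lower (0.00331%) and 0 higher (0.0%), with 1269 and 978 at an unadjusted p under 0.05. DESeq2 in the same design called 2253 features upon TP63 silencing and 886 upon SOX2 silencing. It placed DKK1 (adjusted p = 0.00374), WNT7A (adjusted p = 0.00376) and WNT7B (adjusted p = 0.000359) past the threshold upon TP63 silencing, where edgeR gave adjusted p = 0.303, 0.333 and 0.303. Over all alternatives run, these 3 genes had adjusted p from 0.00374, 0.00376 and 0.000359 up to 1.0. Neither tool called a member upon SOX2 silencing.

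Among the antagonists, DKK3 (chr11:11977754-12031316, minus strand) differed between the libraries of each line. TE5 held 4437 normalized counts of DKK3 in scramble, 911.8 in shTP63, 4453 in shSOX2 and 2245 in shCCAT1. KYSE140 held 9278 in scramble, 2164 in shTP63 and 13270 in shSOX2. The shTP63 library was the lowest of each line, and in TE5 the shCCAT1 library lay between it and the others. These values gave log2 fold changes of -2.28 (95% counting interval -2.38 to -2.19) in TE5 and -2.10 (-2.17 to -2.03) in KYSE140 upon TP63 silencing, that is 20.5% and 23.3% of scramble. Upon SOX2 silencing the values were 0.01 (-0.06 to 0.07) in TE5 and 0.52 (0.47 to 0.56) in KYSE140. Upon CCAT1 silencing DKK3 was at 50.6% of scramble, a log2 fold change of -0.98 (-1.05 to -0.91) that lay just inside the threshold and came to -1.02 with DESeq2 size factors. Within a lane, where the scramble library plays no part, shTP63 against shSOX2 gave -2.29 (-2.38 to -2.19) in TE5 and -2.62 (-2.68 to -2.55) in KYSE140, and shCCAT1 against shSOX2 gave -0.99 (-1.06 to -0.92).

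DKK3 shares sequence with USP47, a deubiquitinase gene on the opposite strand whose 3′ end lies beside that of DKK3. In the GENCODE 44 annotation 5605 of 12103 words of 31 bases in DKK3 transcripts (46.3%) also occur in USP47 transcripts, and all of these lie in DKK3-202, where they are 59.2% of its words. GENCODE 44 gives DKK3-202 a length of 9549 bases, while its length in the deposited files is 2650 bases. Counted back through its exons, that length ends the transcript at position 11984653 of chromosome 11, the same 3′ end as DKK3-201 and DKK3-206. At the deposited lengths, 0 of 5250 DKK3 words occurred in a transcript of another gene, although transcripts absent from GENCODE 44 could not be searched. USP47 itself had log2 fold changes of -0.28, -0.54 and -0.32 upon TP63, SOX2 and CCAT1 silencing in TE5 and of 0.58 and 0.21 upon TP63 and SOX2 silencing in KYSE140. Summing DKK3 with USP47 gave -0.78 and -0.59 upon TP63 silencing, and leaving out DKK3-202 gave -2.15 and -1.90, again as a description.

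Of 16 DKK3 transcripts in the files, DKK3-201 and DKK3-202 held most counts. They differ at the 5′ end, where DKK3-201 starts with an exon at 12030719-12030917 and DKK3-202 with an exon at 12030417-12030629. DKK3-201 was at 3482 normalized counts in TE5 scramble, 811.6 in shTP63, 3561 in shSOX2 and 1024 in shCCAT1, and at 6373, 1737 and 10200 in KYSE140 scramble, shTP63 and shSOX2. DKK3-202 was at 665.3, 61.35, 636.4 and 883.6 in the TE5 libraries in the same order, and at 2309, 293.9 and 2200 in KYSE140. Both were lowest in the shTP63 libraries, with log2 fold changes of -2.10 and -1.87 for DKK3-201 and of -3.42 (-3.79 to -3.10) and -2.97 (-3.15 to -2.80) for DKK3-202. Upon CCAT1 silencing they parted, at -1.76 (-1.86 to -1.67) for DKK3-201 and 0.41 (0.27 to 0.55) for DKK3-202. The share of the gene's counts assigned to DKK3-202 was 15.0% in TE5 scramble, 6.73% in shTP63, 14.3% in shSOX2 and 39.4% in shCCAT1, and 24.9%, 13.6% and 16.6% in KYSE140. DKK3-206, a transcript of 2 exons without a coding sequence, was at 91.08 normalized counts in TE5 scramble, 0.1082 in shTP63, 89.47 in shSOX2 and 259.4 in shCCAT1. In KYSE140 it was at 271.5, 56.18 and 374.1. DKK3-203, with its own first exon at 12031185-12031316, held at most 1.43% of the counts. Only 40 words of DKK3-201, 193 of DKK3-202 and 27 of DKK3-206 occur in no other DKK3 transcript, so their split rests on the reads over few bases, and the counting intervals leave out the error of that split.

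**Figure D3:**
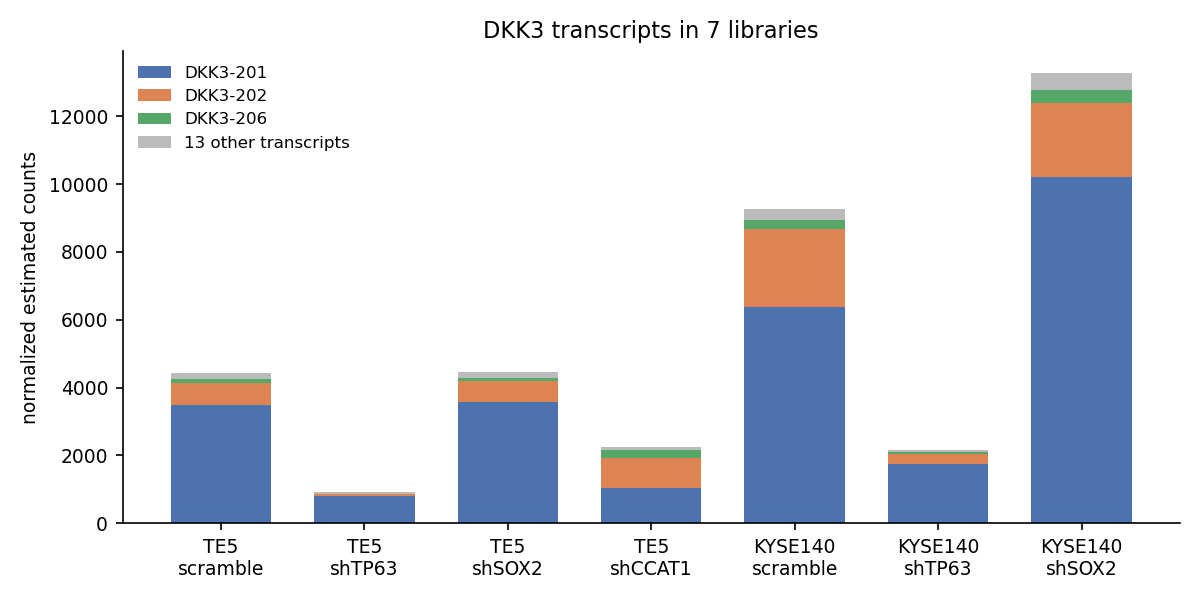
Normalized estimated counts of DKK3 (y axis) in each library (x axis), stacked by transcript. DKK3-201 makes up most of each bar except in TE5 shCCAT1, where DKK3-201 (1024) and DKK3-202 (883.6) are of similar height, and the shTP63 bars are the lowest of each line (911.8 and 2164).

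The genes whose 5 log2 fold changes lay closest to those of DKK3, among 15021 genes with at least 100 mean counts, were ACKR3 (root mean square difference 0.38), OAF (0.39), TP63 itself (0.40), KCNH4 (0.41) and ACO1 (0.46). ACKR3, a decoy receptor for chemokines, had -2.57 and -1.86 in the TP63 comparisons of TE5 and KYSE140. Silencing SOX2 gave 0.40 and 0.22 for it, and silencing CCAT1 -0.40. The knockdowns of a line share 1 scramble library, so the 5 values are not independent. The fall upon TP63 silencing, by which DKK3 was chosen, enters this distance. TP63 is the target of that shRNA, so its low value there is set by the design. Nothing is read from this order beyond a description.

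DKK1 (chr10:54074041-54077802, plus strand) was higher where DKK3 was lower upon TP63 silencing. TE5 held 13550 normalized counts in scramble, 19660 in shTP63, 10040 in shSOX2 and 13080 in shCCAT1. KYSE140 held 587.3 in scramble, 1196 in shTP63 and 427.3 in shSOX2. In each line shTP63 was the highest library and shSOX2 the lowest. Upon TP63 silencing the log2 fold change was 0.54 (0.51 to 0.57) in TE5 and 1.03 (0.87 to 1.19) in KYSE140, and the edgeR estimate over both lines was 0.80 ± 0.16 (SE), the adjusted p of which is given above. Upon SOX2 silencing it was -0.43 (-0.47 to -0.39) in TE5 and -0.46 (-0.66 to -0.25) in KYSE140, with an edgeR estimate of -0.46 ± 0.16 (SE) and edgeR adjusted p = 0.644. Upon CCAT1 silencing it was -0.05 (-0.08 to -0.02), which turned to 0.11 with library totals as the only scaling. Within a lane, shTP63 against shSOX2 gave 0.97 (0.94 to 1.00) in TE5 and 1.48 (1.32 to 1.66) in KYSE140. The main transcript, DKK1-201, held between 73.7% and 89.3% of the gene's counts.

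SFRP1, an antagonist that binds Wnt ligands, was low in TE5 and barely counted in KYSE140. TE5 held 118.8 normalized counts in scramble, 137.7 in shTP63, 196.2 in shSOX2 and 187.3 in shCCAT1. KYSE140 held 0 estimated counts in scramble and shTP63, which allows up to 3 counts a library, and 4 estimated counts in shSOX2. Log2 fold changes in TE5 were 0.21 (-0.14 to 0.57), 0.72 (0.38 to 1.07) and 0.65 (0.33 to 1.00) upon TP63, SOX2 and CCAT1 silencing. The scramble library was the lowest of the 4, in another lane than the rest. Of its 2 transcripts, SFRP1-201 was at 118.8, 137.7, 167.4 and 39.82 normalized counts in those libraries, and SFRP1-202 at 147.5 in shCCAT1 and 28.79 in shSOX2 but near 0 in scramble and 0 in shTP63. By SFRP1-201 alone the value upon CCAT1 silencing was -1.55 (-2.09 to -1.08), opposite in sign to that of the gene.

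WNT7B (chr22:46316246-46373042, minus strand), a ligand of the canonical branch in many epithelia, was the ligand with the highest TPM in all libraries but TE5 shTP63. TE5 held 10890 normalized counts in scramble, 4640 in shTP63, 10000 in shSOX2 and 7715 in shCCAT1. KYSE140 held 13890 in scramble, 8828 in shTP63 and 12530 in shSOX2. The shTP63 library was the lowest of each line, and all 5 knockdown libraries lay below their scramble. Upon TP63 silencing the log2 fold change was -1.23 (-1.28 to -1.18) in TE5 and -0.65 (-0.69 to -0.61) in KYSE140, with an edgeR estimate of -0.91 ± 0.18 (SE). Upon CCAT1 silencing it was -0.50 (-0.54 to -0.46), and upon SOX2 silencing -0.12 (-0.16 to -0.08) and -0.15 (-0.19 to -0.11). Within a lane, shTP63 against shSOX2 gave -1.11 (-1.15 to -1.06) in TE5 and -0.51 (-0.54 to -0.47) in KYSE140. WNT7B-201, its main transcript, carried the value of the gene, at -1.25 and -0.67 upon TP63 silencing. About 4.62% of WNT7B words occur in other genes.

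WNT7A, the close relative of WNT7B, followed it upon TP63 silencing but not upon SOX2 silencing, where they differed in sign in both lines. TE5 held 1665 normalized counts in scramble, 961.6 in shTP63, 2661 in shSOX2 and 1413 in shCCAT1, and KYSE140 held 615.6, 328.0 and 724.5 in scramble, shTP63 and shSOX2. The shTP63 library was the lowest of each line and shSOX2 the highest. The log2 fold change was -0.79 (-0.90 to -0.68) and -0.91 (-1.11 to -0.71) upon TP63 silencing, with an edgeR estimate of -0.83 ± 0.19 (SE), and 0.68 (0.59 to 0.77) and 0.23 (0.06 to 0.41) upon SOX2 silencing. Within a lane, shTP63 against shSOX2 gave -1.47 (-1.57 to -1.37) in TE5 and -1.14 (-1.34 to -0.95) in KYSE140.

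WNT10A, a ligand known for its part in ectodermal appendages, differed in direction between the lines upon TP63 silencing. TE5 held 2305 normalized counts in scramble, 2828 in shTP63, 2410 in shSOX2 and 1607 in shCCAT1. KYSE140 held 1149 in scramble, 851.2 in shTP63 and 1456 in shSOX2. The shTP63 library was thus the highest in TE5 and the lowest in KYSE140, with log2 fold changes of 0.30 (0.22 to 0.37) and -0.43 (-0.57 to -0.30), while the difference between the lines was not tested. Upon SOX2 silencing the values were 0.06 (-0.02 to 0.15) and 0.34 (0.21 to 0.47), and upon CCAT1 silencing -0.52 (-0.61 to -0.43).

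WNT5A (chr3:55499743-55524567, minus strand), the main ligand of the branches without beta-catenin, was lowest upon CCAT1 silencing. TE5 held 1238 normalized counts in scramble, 1645 in shTP63, 2268 in shSOX2 and 491.5 in shCCAT1. KYSE140 held 3121 in scramble, 4102 in shTP63 and 2780 in shSOX2. The shCCAT1 library was at 39.7% of scramble, a log2 fold change of -1.33 (-1.48 to -1.19), and the shCCAT1 against shSOX2 value within the lane was -2.20 (-2.34 to -2.08). Upon TP63 silencing the gene was higher in both lines, at 0.41 (0.31 to 0.51) and 0.39 (0.32 to 0.47). Upon SOX2 silencing it was 0.87 (0.77 to 0.98) in TE5 and -0.17 (-0.25 to -0.08) in KYSE140. CCAT1 was targeted in TE5 alone, so the fall of WNT5A has no other line to be set beside. In TE5 shTP63 and shSOX2, CCAT1 was also lower (37.6% and 50.5% of scramble), while WNT5A was higher. The part of CCAT1 in these values was not tested.

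WNT5A-202 and WNT5A-201, which start at 55523973 and 55521334 of chromosome 3, split the gene's counts. WNT5A-202 was at 661.9 normalized counts in TE5 scramble and 208.9 in shCCAT1, and WNT5A-201 at 486.9 and 249.8, so both were lower upon CCAT1 silencing (-1.66 and -0.96). Upon TP63 silencing in KYSE140, WNT5A-201 went from 887.8 to 2302 normalized counts (1.37, interval 1.25 to 1.5) and WNT5A-202 from 2198 to 1758 (-0.32, interval -0.42 to -0.23). In TE5 the same comparison gave 0.02 for WNT5A-201 and 0.66 for WNT5A-202. WNT5A-201 has 0 words that no other WNT5A transcript holds and WNT5A-202 has 205, so the split again rests on few bases.

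WNT4 had the lowest TPM of the 5 ligands in 6 of 7 libraries, the exception being KYSE140 shSOX2, where WNT7A (2.63 TPM) lay below it (3.57 TPM). TE5 held 93.08 normalized counts in scramble, 116.3 in shTP63, 156.6 in shSOX2 and 65.41 in shCCAT1, and KYSE140 held 382.0, 190.9 and 651.4 in scramble, shTP63 and shSOX2. The shSOX2 library was the highest of each line, at 0.74 (0.36 to 1.14) and 0.77 (0.56 to 0.98). Upon TP63 silencing the values were 0.32 (-0.08 to 0.70) in TE5, where the interval holds 0, and -1.0 (-1.27 to -0.74) in KYSE140, just inside the threshold and at -1.04 with DESeq2 size factors. Upon CCAT1 silencing it was -0.50 (-0.96 to -0.06). The edgeR estimate for SOX2 silencing over both lines was 0.74 ± 0.46 (SE), with edgeR adjusted p = 0.773.

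Summed over all 19 Wnt ligand genes, the ligand level was 109 TPM in TE5 scramble, 86.4 in shTP63, 116 in shSOX2 and 85.3 in shCCAT1, and 133, 104 and 128 in KYSE140 scramble, shTP63 and shSOX2. The total was thus lower in both shTP63 libraries and in shCCAT1, at log2 ratios of -0.34, -0.35 and -0.35. WNT7B made up 46.5% of the total in TE5 scramble and 29.3% in shTP63, while WNT10A made up 20.1% and 35.4%. In KYSE140 the share of WNT7B was 44.3% in scramble and 38.1% in shTP63, and that of WNT5A 7.08% and 12.2%.

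FZD7, a Frizzled receptor with 1 transcript, was at 1121 normalized counts in TE5 scramble, 640.3 in shTP63, 1836 in shSOX2 and 821.5 in shCCAT1. KYSE140 held 2701 in scramble, 2175 in shTP63 and 2816 in shSOX2. As for WNT7A, shTP63 was the lowest library of each line and shSOX2 the highest. TP63 silencing gave log2 fold changes of -0.81 (-0.94 to -0.68) in TE5 and -0.31 (-0.40 to -0.23) in KYSE140. SOX2 silencing gave 0.71 (0.60 to 0.82) and 0.06 (-0.03 to 0.15), and CCAT1 silencing gave -0.45 (-0.57 to -0.32). The SOX2 value in KYSE140 turned to -0.02 with library totals as the only scaling. About 3.14% of FZD7 words occur in other genes, chiefly FZD2.

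AXIN2 (chr17:63524681-63557766, minus strand), a target gene commonly used as a readout of beta-catenin, was low in TE5, and its values there have wide intervals. TE5 held 70.42 normalized counts in scramble, 91.80 in shTP63, 67.49 in shSOX2 and 34.06 in shCCAT1. KYSE140 held 715.4 in scramble, 720.1 in shTP63 and 470.3 in shSOX2. Upon TP63 silencing the intervals of both lines hold 0, at 0.38 (-0.06 to 0.84) and 0.01 (-0.15 to 0.17), and the latter turned to -0.03 with DESeq2 size factors. Upon SOX2 silencing it was -0.06 (-0.58 to 0.45) in TE5 and -0.60 (-0.80 to -0.41) in KYSE140. Upon CCAT1 silencing it was -1.03 (-1.64 to -0.47), from 67 estimated counts in scramble and 42 in shCCAT1, and it came to -0.87 with library totals and -0.37 by TPM. The 2 main transcripts parted in that comparison, both at few counts. AXIN2-201 went from 40.33 to 5.785 normalized counts (-2.61, interval -4.22 to -1.63). AXIN2-202 went from 24.5 to 24.69 (0.01, interval -0.82 to 0.86), so the fall of the gene was that of AXIN2-201. The counts of AXIN2 are uncertain, since 25.0% of its words occur in other genes, mainly a read-through transcript.

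The rest of the pathway was read from a list of 86 genes, members included, that was drawn up with earlier results known. Upon TP63 silencing in TE5, 14 of 76 measured genes fell past the threshold and 5 rose, beside 5.72% and 14.6% of all genes, with a median log2 fold change of -0.30. Upon TP63 silencing in KYSE140, 2 of 70 fell and 3 rose, beside 4.29% and 8.89%, with a median of -0.14. Upon SOX2 silencing 3 of 73 fell and 1 rose in TE5, beside 4.98% and 6.29%, and 4 of 68 fell and 1 rose in KYSE140, beside 6.39% and 6.91%, with medians of -0.03 and 0.08. Upon CCAT1 silencing 7 of 72 fell and 1 rose, beside 5.96% and 12.1%, with a median of -0.34. Medians over all genes, and the lower shares among genes with at least 100 counts, are those given above for the members. The edgeR fit held 75 of the genes and called 0 in either comparison. At an unadjusted p under 0.05 were 21 of them for TP63 silencing and 9 for SOX2 silencing. Of all 30171 features, 1996 were lower and 1340 higher at that level for TP63 silencing, and 1269 and 978 for SOX2 silencing. DKK3, which was chosen for its fall upon TP63 silencing, and DKK1 are counted in these numbers.

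Of the co-receptors and DKK receptors, 3 of 8 fell past the threshold and 1 rose upon TP63 silencing in TE5, with a median of -0.20. The shares of all genes were 5.72% lower and 14.6% higher. One of the 3, ROR2, held few counts (37.84 normalized in scramble and 10.89 in shTP63). In KYSE140 0 of 7 passed, beside 4.29% and 8.89% of all genes, with a median of -0.14. LRP5 and LRP6, the co-receptors that DKK1 blocks, were at 0.02 and -0.10 in TE5 and at 0.02 and 0.36 in KYSE140. KREMEN1, which binds DKK1 and removes LRP6 from the surface, was at 3695 normalized counts in TE5 scramble and 1159 in shTP63, a log2 fold change of -1.67 (-1.76 to -1.58), and at 11270 and 6239 in KYSE140, a change of -0.85 (-0.90 to -0.81). KREMEN2, which acts alike, had -1.11 (-1.25 to -0.98) and -0.71 (-0.78 to -0.65). Upon SOX2 silencing KREMEN1 was at -0.09 and 0.07 and KREMEN2 at -0.26 and 0.38, and upon CCAT1 silencing they were at -0.59 and -0.41. Frizzled genes had 0 of 10 past the threshold in TE5 and 0 of 9 in KYSE140 in any comparison. Over the comparisons, 4.29% to 6.39% of all genes were lower and 6.29% to 14.6% higher.

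Among feedback and common target genes of beta-catenin, 6 of 13 fell and 0 rose upon TP63 silencing in TE5, with a median of -0.90. The shares of all genes were 5.72% lower and 14.6% higher. In KYSE140 1 of 13 fell and 2 rose (LGR5 and DKK1), beside 4.29% and 8.89% of all genes, and the median was -0.31. LGR5 held few counts there (20.2 normalized in scramble and 42.46 in shTP63). RNF43, a ubiquitin ligase that removes Frizzled receptors, was above 0 in both lines, at 0.78 and 0.51, and DKK1 (0.54), CCND1 (0.47), AXIN2 (0.38) and NKD1 (0.13) were above 0 in TE5. LEF1, a nuclear partner of beta-catenin, was at 252.9 normalized counts in TE5 scramble, 45.90 in shTP63 and 655.3 in shSOX2, log2 fold changes of -2.44 (-2.90 to -2.05) and 1.37 (1.15 to 1.59), and in KYSE140 at -0.37 and -0.01. TCF7, another such partner, had -2.0 (-2.32 to -1.72) in TE5 and -2.22 (-3.29 to -1.34) in KYSE140, where scramble held only 57.05 normalized counts. NKD2, an inhibitor downstream of the receptor, had -2.03 and -0.50 in the TP63 comparisons. Silencing SOX2 gave -0.47 and -1.09 for it, and silencing CCAT1 -1.05. ZNRF3, the relative of RNF43, had -1.62 in TE5 and 0.48 in KYSE140. NOTUM, which removes the lipid of Wnt proteins, had -1.13 and -0.48 upon TP63 silencing and -0.09 and -1.11 upon SOX2 silencing. SP5, a target gene in many tissues, had -1.02 and -0.31 upon TP63 silencing at 105.1 and 21.55 normalized counts in scramble.

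Other secreted factors of the list went both ways upon TP63 silencing. SOST, which binds the LRP co-receptors, was at 1303 normalized counts in TE5 scramble and 212.4 in shTP63, a log2 fold change of -2.61 (-2.81 to -2.43), and at 45.80 and 25.30 in KYSE140. Silencing SOX2 gave 0.17 for SOST in TE5 and 1.84 (1.32 to 2.45) in KYSE140, and silencing CCAT1 gave -0.90. SOSTDC1, its relative, had 1.32 (1.12 to 1.53) in TE5 and 0.86 (0.73 to 0.99) in KYSE140 upon TP63 silencing, and -1.31 (-1.63 to -1.02) upon CCAT1 silencing. The ligand WNT10B had -1.30 (-1.58 to -1.04) and -0.08 (-0.25 to 0.09), and RSPO4, an R-spondin that strengthens Wnt signals, had -1.02 (-1.15 to -0.90) in TE5 and was not measured in KYSE140. RYK, a Wnt co-receptor, was at 250.6 normalized counts in TE5 scramble, 926.2 in shTP63, 415.0 in shSOX2 and 576.1 in shCCAT1, above scramble in all 3 knockdowns, and had -0.14 and -0.32 in KYSE140.

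**Figure D4:**
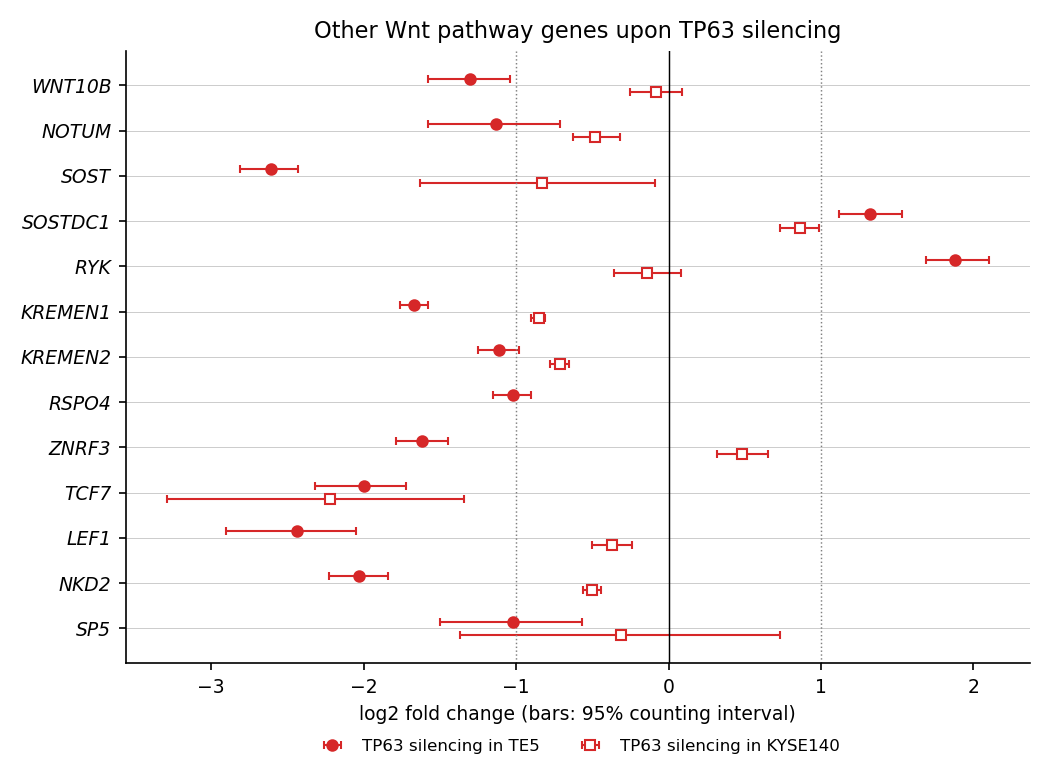
Log2 fold change upon TP63 silencing (x axis) of the 13 other Wnt pathway genes with at least 100 counts and a change past -1 or 1 in any comparison (y axis), filled circles for TE5 and open squares for KYSE140, with 95% counting intervals. In TE5, 11 of them lie at -1.02 or lower, while in KYSE140 only TCF7 does (-2.22). A pass in TE5 was enough to admit a gene, so this contrast follows in part from the choice and is no result about the lines. RSPO4 has no KYSE140 point because it was under 10 counts.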

How the data were processed

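Total RNA of 7 libraries was sequenced as 100 bp paired-end reads. The authors quantified transcripts with Kallisto against Ensembl transcripts of hg19. For each library they deposited, as an estimated count and as TPM, each of 196354 transcripts, where reads that fit several transcripts are split by likelihood. Transcripts were assigned to genes by identifier with GENCODE 44 lifted to GRCh37 (182863 assigned; 13491 unassigned, holding 6.31% to 6.55% of counts, were kept as single features in scaling and in the fit). CCAT1 was read as transcript ENST00000500112, which GENCODE 44 lists under CASC19. The members and lists were chosen with earlier results of these data known.

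Counts summed to genes were scaled with TMM (edgeR 4.0.16, R 4.3.3), and each knockdown was set against the scramble of its line as log2 of counts with a pseudocount of 1, where a gene reached 10 counts in either library. Intervals are exact (Clopper-Pearson) at 95% and cover counting error only. Fold changes with 1 library per condition have no p-value. Lane-matched values compare knockdowns of a line with each other. Over both lines, counts rounded to whole numbers were fitted with glmQLFit and glmQLFTest (cell line as a block, 2 residual degrees of freedom, filterByExpr). The SE of an edgeR estimate was worked back from that test, as the absolute estimate divided by the square root of its F statistic. It is no separate measure of spread. The block takes out the level of each line, so p-values set an shRNA effect against how far such effects differed between the lines. They do not measure the spread between cultures. The fit was run on simulated counts with no difference between the lines and the same change in both, which leaves its power in these data unknown. DESeq2 1.42.0, other scalings, filters and thresholds, TPM with a pseudocount of 0.1 and single transcripts were alternatives. Named genes were the 10 members, Wnt list genes with at least 100 counts and a log2 fold change past -1 or 1 in a comparison, and the 5 genes closest to DKK3. Transcripts holding at least 20% of a gene's counts in a library, and all of DKK3, were examined. Shared sequence was counted as 31-base words of GENCODE 44 transcripts.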

Additional observations from a re-analysis of the deposited data

Results flagged for a closer look

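WNT10A upon TP63 silencing went one way in TE5 and the other in KYSE140, with log2 fold changes of 0.30 and -0.43 whose counting intervals both leave out 0. WNT5A upon SOX2 silencing did likewise, at 0.87 in TE5 and -0.17 in KYSE140. Each value rests on 1 library against 1, and the difference between the lines was not tested. In KYSE140 the shSOX2 library kept 76.4% of SOX2, against 39.4% in TE5, and its part in the WNT5A values was not tested.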

How the results depend on the processing

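Each knockdown was paired with the scramble of its line through the cell line block, and no replicates within a line were there to pair or leave out. The signs of WNT10A and WNT5A in the comparisons above held under every scaling run. Upon CCAT1 silencing in TE5, members past the threshold went from 2 to 1 with library totals, with TPM, with a pseudocount of 10 and with at least 100 counts, AXIN2 being the gene lost, and to 3 with DESeq2 size factors, which add DKK3 at -1.02. Upon SOX2 silencing in KYSE140 they went from 0 to 1 with a minimum of 1 count, through the 4 counts of SFRP1. Upon TP63 silencing in KYSE140 the count stayed at 2, but DESeq2 size factors replaced DKK1 by WNT4. Library totals moved the median of all genes by 0.15 and 0.16 (log2) upon TP63 and CCAT1 silencing in TE5. Over both lines, features called upon TP63 silencing went from 0 to 2253 with DESeq2 and to 220 with only transcripts assigned to a gene, and upon SOX2 silencing from 1 to 886, to 34, to 0 without the cell line block and to 0 at an adjusted p under 0.05. The cause of these differences was not tested. SFRP1, WNT4 and AXIN2 had too few counts in TE5 for differences within their intervals to be detectable.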
